A study of Mus musculus with 6 samples.

Results

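The perilipins and other genes of the lipid droplet were examined in liver RNA from mice with sickle cell disease. The set comprised 10 genes, chosen by symbol: Plin2, Plin3, Plin4, Plin5, Cidea, Cideb, Cidec, Cd36, Pparg and Pnpla2. All 10 were found among the 24421 gene symbols of the count tables, and 9 of them had enough counts to test, among 12622 genes tested in all. Cidea was the member with too few counts for this test.

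All mice were of the Townes model, where the adult globin genes of the mouse are replaced by human ones. SS mice, the sickle cell disease group, had 3 libraries and carried the alleles Hbatm1(HBA)Tow and Hbbtm2(HBG1,HBB*)Tow, so that their only beta-globin was the sickle form. AS mice, the sickle trait group used as controls, also had 3 libraries and carried Hbatm1(HBA)Tow with 1 Hbbtm2(HBG1,HBB*)Tow and 1 Hbbtm3(HBG1,HBB)Tow allele. Both groups were sampled at 7 months of age, as whole-liver total RNA, so the controls are sickle carriers and not wild-type mice. The labels state no sex, litter, feeding state or batch and do not say that the libraries of a group came from separate animals, and the spread behind each p-value may therefore be technical.

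Lipid droplets hold triglyceride and cholesteryl ester inside a single phospholipid layer. Perilipins coat that layer and control the access of lipases. CIDE proteins drive the fusion of droplets and the loading of lipid onto secreted lipoproteins, CD36 takes up fatty acids at the cell surface, and the lipase encoded by Pnpla2 starts the breakdown of stored triglyceride. PPAR gamma, encoded by Pparg, is the nuclear receptor of the fat-cell program, and in mouse liver with steatosis it is known to raise Cidec and Cd36, among others.

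Gene reads per library ran from 6670011 to 13700194. AS replicates 2 and 3 resembled each other most. Their counts gave a per-gene chi-square of 4.02, above sampling noise, whereas the remaining 14 pairs of libraries gave 28.1 to 171. AS replicate 1 and SS replicate 3 stood apart from their groups: AS replicate 1 was the highest or the lowest AS library in 81.9% of tested genes and SS replicate 3 the highest or lowest SS library in 78.3%. Among the 9 members tested the same held for 9 and 8, which is near those shares. For the genes run under such fits, where a log2 change moved by over 1.5 times in fold, or a call changed, without these libraries, the value without them is given beside it. SS replicate 1 had the largest share of alignment records outside annotated genes, 53.9% against 40.7% to 43.8% in the other 5 libraries, and the part of this in the results was not tested.

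Plin4 was the only member called, and it rose in SS liver. Plin4 encodes perilipin 4, a coat protein of fat-cell and muscle droplets with a long amphipathic repeat. It had 23.0, 15.1 and 71.4 CPM (reads of the gene set against the library's scaled total) in SS replicates 1, 2 and 3, against 0.576, 4.19 and 2.94 CPM in AS replicates 1, 2 and 3. Every SS library was above every AS library, with SS replicate 3 far above the other 2 SS libraries and AS replicate 1 the lowest of all. The reads behind these values were 174, 208 and 913 in SS and 5, 26 and 36 in AS. The fold change was 14.4 (95% interval 4.70 to 44.3), or 3.85 as log2 with an SE of 0.727, at an adjusted p of 0.0444 by edgeR. At an adjusted p under 0.05, edgeR called 0.911% of all tested genes higher in SS and 0.0555% lower, while 1 of 9 tested members was called higher and none lower. At an unadjusted p under 0.05 the members numbered 2, Plin4 and Cd36, against 12.7% of all tested genes. In bulk liver RNA, fewer cells of a type and less RNA per cell cannot be told apart.

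The call of Plin4 did not survive the loss of any single library. In the 6 fits that left out 1 library its log2 change ran from 2.90, without SS replicate 3, to 4.30, without AS replicate 2, and its edgeR adjusted p from 0.0616 to 0.271. In the fit without both AS replicate 1 and SS replicate 3, the log2 change was 2.43 and the gene was called (edgeR adjusted p = 0.00979). It was called by DESeq2 (adjusted p = 1.45e-06), but not by limma-voom (adjusted p = 0.1496), without the filter on low counts (edgeR adjusted p = 0.236) or with AS replicates 2 and 3 summed as 1 library (edgeR adjusted p = 0.217). Calls were rarer or commoner over all genes too. The share of tested genes called higher was 0.167%, 0.197% and 0.282% without AS replicate 1, 2 and 3, and 0.596%, 0.2% and 0.659% without SS replicate 1, 2 and 3. The share called lower was 0.00763% without AS replicate 3, 0.116% without SS replicate 1, 0.109% without SS replicate 3 and 0% in the other 3 of these fits. Without both AS replicate 1 and SS replicate 3 the shares were 2.72% higher and 2.49% lower. They were 1.87% and 0.631% by DESeq2, 0.238% and 0.00792% by limma-voom, 1.01% and 0.155% without the filter, and 0.236% and 0% with the AS pair summed.

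**Figure D1:**
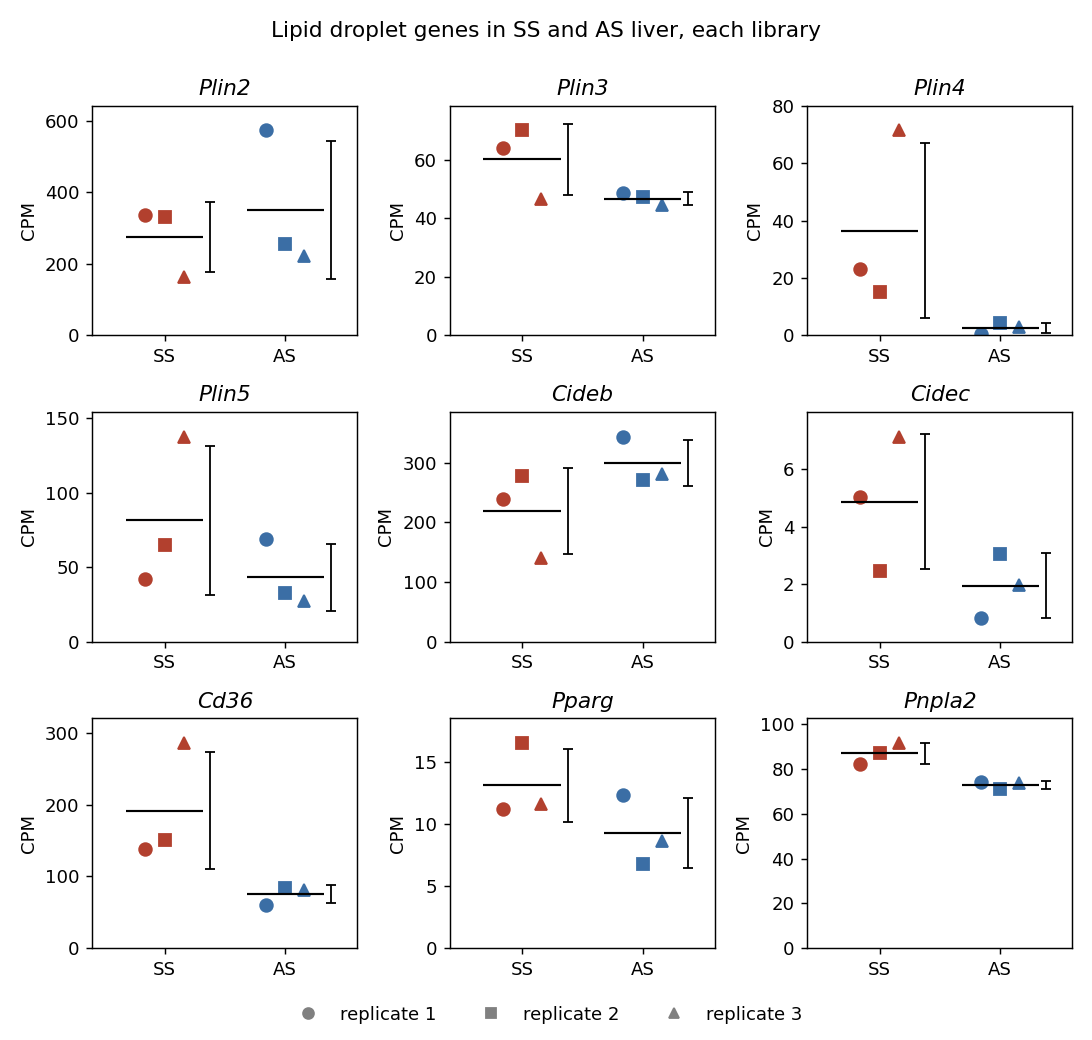
CPM (vertical axes, each from 0) of the 9 tested genes in the 3 SS and 3 AS libraries. Symbols mark the replicate number, horizontal bars the group mean and vertical bars the SD (n = 3). Plin4 lies between 15.1 and 71.4 CPM in SS and between 0.576 and 4.19 CPM in AS, and Cd36 and Pnpla2 are the other 2 genes whose groups do not overlap.

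Plin4 lies on the minus strand of chromosome 17 (56100591 to 56109803, mm10). Plin5 lies on the same strand at 56111601 to 56117596, upstream of Plin4 in the direction of transcription, with 1797 bases between the pair. Plin3 lies at 56277476 to 56292873. The bases just before the RefSeq transcription starts (GRCm38.p6, the assembly that mm10 names) are shown for Plin4, the called gene, for its neighbour Plin5 and for Cd36, the member with the next lowest p. They are printed 5′ to 3′ on the gene's strand and cut back where GENCODE annotates an exon. The Cd36 start used, at 17835896, lies well inside the GENCODE span of that gene (17781690 to 17888801), which reaches further upstream. The capitals mark AGGTCA or its reverse complement TGACCT, the half-site that PPAR and other nuclear receptors bind.
Plin4, chr17:56109804-56110032, minus strand: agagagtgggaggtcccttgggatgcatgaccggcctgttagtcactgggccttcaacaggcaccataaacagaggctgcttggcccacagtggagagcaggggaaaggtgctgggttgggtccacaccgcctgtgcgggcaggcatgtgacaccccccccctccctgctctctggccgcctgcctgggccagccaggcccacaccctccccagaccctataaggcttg
Plin5, chr17:56117597-56117798, minus strand: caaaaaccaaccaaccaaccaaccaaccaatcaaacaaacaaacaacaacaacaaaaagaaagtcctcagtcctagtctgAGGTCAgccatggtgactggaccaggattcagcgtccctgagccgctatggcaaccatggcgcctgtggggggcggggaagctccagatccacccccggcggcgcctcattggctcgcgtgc
Cd36, chr5:17835897-17836146, minus strand: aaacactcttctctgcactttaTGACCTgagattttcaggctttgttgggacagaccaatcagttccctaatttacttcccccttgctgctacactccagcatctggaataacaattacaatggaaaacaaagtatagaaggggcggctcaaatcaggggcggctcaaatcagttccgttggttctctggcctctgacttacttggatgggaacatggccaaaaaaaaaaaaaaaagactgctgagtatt

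RefSeq windows of 250 bases before a start were at hand for 9 of the 10 members, 13 windows in all. On either strand AGGTCA occurred in 5 of the 13, belonging to Plin2, Plin5, Cd36 and Pparg, and in 14% of 32851 windows of the same length over all genes. The direct repeat of AGGNCA with 1 free base between its copies, the form bound by PPAR with its partner RXR, was also sought on either strand and occurred in 0 of the 13 and in 0.338% of all windows. The Plin4 window held neither. These matches describe letters in short windows and say nothing of binding elsewhere.

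Cd36, the fatty acid translocase, came next. It had 138, 151 and 286 CPM in SS replicates 1, 2 and 3, against 60.3, 83.4 and 81.2 CPM in AS replicates 1, 2 and 3. All SS libraries were above all AS libraries, and SS replicate 3 was again the highest. The log2 change was 1.36 (SE 0.323, 95% interval 0.64 to 2.07), a 2.56-fold difference, at an edgeR adjusted p of 0.0948, so it was not called. DESeq2 called it (adjusted p = 0.00579), as did edgeR without the filter on low counts (adjusted p = 0.02998) and without both AS replicate 1 and SS replicate 3 (log2 change 0.81, adjusted p = 0.0246). Without SS replicate 3 alone the log2 change was 0.94.

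**Figure D2:**
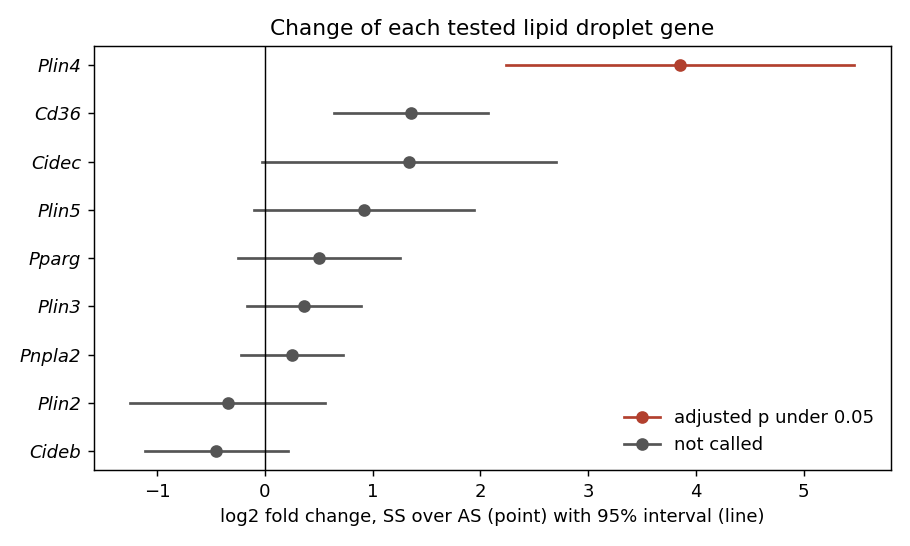
Log2 fold change of SS over AS (horizontal axis) for each of the 9 tested genes, with its 95% interval from the edgeR fit. Plin4 at 3.85 is the only called gene, the interval of Cd36 (0.64 to 2.07) also lies above 0, and those of the other 7 genes include 0.

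The other perilipins did not pass the test. Plin2, the main perilipin of hepatocyte droplets and a common readout of liver fat, had 335, 330 and 163 CPM in SS and 574, 256 and 223 CPM in AS. The groups overlapped widely, with AS replicate 1 the highest library and SS replicate 3 the lowest. Its log2 change was -0.34 (SE 0.410, 95% interval -1.25 to 0.56, edgeR adjusted p = 0.747), and the sign turned to 0.19 without AS replicate 1 and to 0.47 without both AS replicate 1 and SS replicate 3.

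Plin5, which ties droplets to mitochondria in tissues that burn fat, had 42.0, 65.0 and 138 CPM in SS and 69.0, 32.7 and 27.6 CPM in AS. The highest value was that of SS replicate 3, and AS replicate 1 exceeded 2 of the 3 SS libraries. The log2 change was 0.92 (SE 0.459, 95% interval -0.096 to 1.94, edgeR adjusted p = 0.432), which was 0.31 without SS replicate 3 and 1.43 without AS replicate 1. Plin3, a widely expressed perilipin that moves between cytosol and droplets, had 63.9, 70.0 and 46.6 CPM in SS and 48.5, 47.4 and 44.4 CPM in AS. SS replicates 1 and 2 were above all AS libraries and SS replicate 3 was among them, at a log2 change of 0.36 with an SE of 0.240 (edgeR adjusted p = 0.544).

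Set per length of exon, the summed perilipin level was alike in the 3 SS libraries while its make-up was not. CPM per kilobase summed over Plin2, Plin3, Plin4 and Plin5 was 140.0 ± 5.56 in SS and 133 ± 66.1 in AS (SD, n = 3 each), the AS spread coming from 209 in AS replicate 1. Plin2 made up 70.0% of it in the SS library where its share was highest and 33.9% in SS replicate 3, against 71.4% to 78.0% in the AS libraries. Plin5 supplied 14.7%, 21.3% and 48.1% in SS replicates 1, 2 and 3, against 14.9% to 15.8% over the AS libraries. The share of Plin4 was 1.78% to 9.02% in SS and 0.0476% to 0.712% in AS. SS replicate 3 was thus the 1 library in which Plin5 exceeded Plin2 per length. No test was made of these shares, since they were formed from the members after their values were known.

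**Figure D3:**
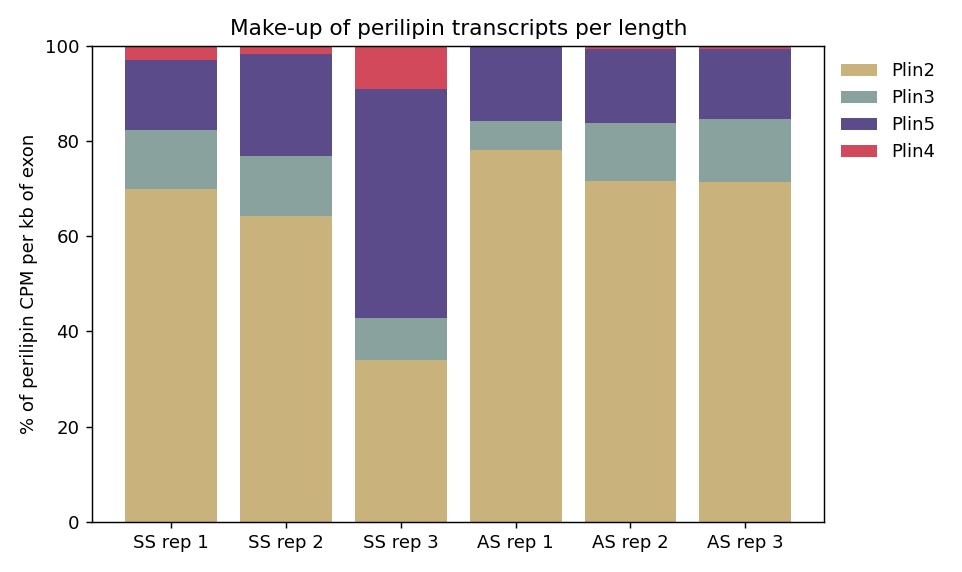
Share of each perilipin (stacked bars, % of the CPM per kilobase of exon summed over Plin2, Plin3, Plin5 and Plin4) in each SS and AS library. Plin2 is the largest part except in SS rep 3, where it holds 33.9% and Plin5 48.1%.

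Among the CIDE genes, Cideb dominated. Cideb, which in hepatocytes promotes the lipidation of very low density lipoproteins, had 239, 278 and 140 CPM in SS and 344, 272 and 282 CPM in AS. SS replicate 2 lay inside the AS range and SS replicate 3 was the lowest of the 6. The log2 change was -0.45 (SE 0.30, 95% interval -1.12 to 0.21, edgeR adjusted p = 0.551). Of the annotated exon length of Cideb 76.3% overlaps exons of Nop9 on the other strand, and the strand setting of the counting is not given in the sources used here, so its level may include or lack reads of that gene.

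Cidec, the fat-cell CIDE gene also known as Fsp27, had 5.01, 2.47 and 7.12 CPM in SS and 0.806, 3.06 and 1.96 CPM in AS. SS replicates 1 and 3 were above all AS libraries, whereas SS replicate 2 fell below AS replicate 2. The log2 change was 1.34 (SE 0.618, 95% interval -0.029 to 2.71, edgeR adjusted p = 0.406), on 7 to 91 reads per library, and 0.57 without both AS replicate 1 and SS replicate 3. Cidea, known from brown fat and from fatty mouse liver, had 2, 4 and 0 reads in SS and 0 in each AS library. A total of 0 reads over the AS libraries allows up to 0.111 CPM (3 counts over the group, counting error only), against a mean of 0.185 CPM in SS. With 6 reads in all, the gene was removed by the filter on low counts and was not tested in the fit that used it. In the edgeR fit without that filter Cidea was not called.

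Pparg had 11.2, 16.5 and 11.7 CPM in SS and 12.3, 6.77 and 8.67 CPM in AS, and SS replicates 1 and 3 lay below AS replicate 1. Its log2 change was 0.50 (SE 0.339, 95% interval -0.25 to 1.25, edgeR adjusted p = 0.554). Pnpla2, the gene of adipose triglyceride lipase, varied least between libraries of a group: it had 82.5, 87.0 and 91.6 CPM in SS and 74.4, 70.9 and 73.7 CPM in AS. The groups did not overlap, but the log2 change was 0.25 (SE 0.214, 95% interval -0.22 to 0.73, edgeR adjusted p = 0.638). Non-overlapping groups with SS above AS were found in 3 of the 9 tested members, Plin4, Cd36 and Pnpla2, and in 12.1% of all tested genes. None of the 9 had every SS library below every AS library, against 9.04% of all tested genes.

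The order of levels per length was led by the same pair in both groups. In SS liver Cideb had 147 ± 48.0 CPM per kilobase and Plin2 78.7 ± 27.9, and the ranges of the pair overlapped. In AS liver Cideb had 201 ± 26.1 and Plin2 99.9 ± 55.1 CPM per kilobase, without overlap. Below them came, in SS, Cd36 at 53.5 ± 22.8, Plin5 at 39.1 ± 23.9 and Pnpla2 at 28.8 ± 1.52 CPM per kilobase, each overlapping its neighbour, and then Plin3 at 15.9 ± 3.20. In AS the corresponding levels were 20.9 ± 3.55 for Cd36, 20.7 ± 10.8 for Plin5, 24.2 ± 0.616 for Pnpla2 and 12.3 ± 0.557 for Plin3, so that Pnpla2 stood above Cd36 and Cd36 and Plin5 overlapped. Plin4 had 6.32 ± 5.28 CPM per kilobase in SS and 0.445 ± 0.318 in AS. Its SS level overlapped those of Plin3 and Pparg (4.45 ± 0.999), while its AS level overlapped that of Cidec (1.05 ± 0.607) and lay under that of Pparg (3.13 ± 0.956). By mean level per length, Plin4 stood above 63.8% of 12162 tested genes with a known exon length in SS and above 12.0% in AS.

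Other genes of fat storage were described by lists. Of 22 other droplet proteins, 21 were tested and none was called by edgeR, with 2 lower at an unadjusted p under 0.05. DESeq2 called 1 of them lower, Hsd17b11, and limma-voom none. The median log2 change of the list was -0.35, against 0.08 for all tested genes. Hsd17b11 and Hsd17b13, dehydrogenases on the droplet surface, did not pass the edgeR test with all libraries. Hsd17b11 had 174 ± 3.51 CPM in SS and 278 ± 29.2 CPM in AS (SD, n = 3 each), a log2 change of -0.68 (edgeR adjusted p = 0.268). Hsd17b13 had 239.6 ± 31.0 CPM in SS and 371 ± 98.2 CPM in AS, a log2 change of -0.63 (edgeR adjusted p = 0.392). Without both AS replicate 1 and SS replicate 3, edgeR called 3 genes of the list lower, Hsd17b11 (log2 change -0.75, adjusted p = 0.0241), Hsd17b13 (-0.85, adjusted p = 0.0248) and Mettl7a1, and 1 higher, Fitm1. Plin1, the main perilipin of white fat, had 0 reads in every library.

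The partners of the Pnpla2 lipase are named for that role. G0s2, its inhibitor, had 28.2, 34.9 and 23.2 CPM in SS and 15.0, 19.3 and 22 CPM in AS, without overlap (log2 change 0.61, SE 0.279, edgeR adjusted p = 0.397). Abhd5, its co-activator, had 22.6 ± 0.567 CPM in SS and 24.5 ± 1.16 CPM in AS (log2 change -0.12, SE 0.239, edgeR adjusted p = 0.858). Hilpda, a second inhibitor that hypoxia induces, had 3.17, 8.85 and 2.74 CPM in SS and 4.95, 1.77 and 3.03 CPM in AS, with wide overlap.

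Of 12 triglyceride synthesis genes, 10 were tested, with a median log2 change of -0.0020. None was called by edgeR, DESeq2 or limma-voom, and none had an unadjusted edgeR p under 0.05. Dgat2, which makes triglyceride from diacylglycerol, had 331, 302 and 454 CPM in SS and 518, 543 and 560 CPM in AS, without overlap (log2 change -0.58, SE 0.261, edgeR adjusted p = 0.396). Without both AS replicate 1 and SS replicate 3 it was called lower (log2 change -0.80, edgeR adjusted p = 0.0157). Agpat2, an acyltransferase of the same pathway, had a log2 change of -0.52 (SE 0.311).

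Of the 16 genes of fatty acid uptake and binding, 1 was called, Lpl, and the list had a median of -0.27, with 3 genes higher and 5 lower at an unadjusted p under 0.05. Lpl, the lipase that frees fatty acids from circulating lipoproteins, had 294, 617 and 183 CPM in SS, against 101, 40.1 and 54.2 CPM in AS. It rose in SS liver, with a log2 change of 2.49 at an edgeR adjusted p of 0.0462. Its highest library was SS replicate 2, not the SS replicate 3 that led for Cd36 and Plin4. The call ended with median-ratio size factors (edgeR adjusted p = 0.0543) and by limma-voom (adjusted p = 0.0644), with AS replicates 2 and 3 summed (edgeR adjusted p = 0.213) and without any 1 library other than SS replicate 3. The log2 change was 1.86 without SS replicate 2. DESeq2 called it (adjusted p = 2.08e-05), as did edgeR without both AS replicate 1 and SS replicate 3 (log2 change 3.26, adjusted p = 0.00154).

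Slc27a5 and Slc27a2 of the same list were singled out after their values were seen, and neither passed the test with all libraries. Slc27a5, a bile acid and fatty acyl-CoA ligase, had 768, 582 and 312 CPM in SS, against 1022, 1012 and 987 CPM in AS (log2 change -0.86, SE 0.332, edgeR adjusted p = 0.320). Slc27a2, a fatty acid transporter and ligase, had 584 ± 129 CPM in SS and 876 ± 131 CPM in AS (log2 change -0.58, edgeR adjusted p = 0.412), and edgeR called it without both AS replicate 1 and SS replicate 3.

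Of 23 PPAR gamma partners and fat-cell program genes, 21 were tested and Lpl, which also stands in the uptake list, was the 1 called. The list median was 0.28. Ucp2, a mitochondrial carrier, was singled out after its values were seen: it had 77.6, 162 and 147 CPM in SS and 52.2, 47.7 and 51.3 CPM in AS (log2 change 1.36, SE 0.297, edgeR adjusted p = 0.0699). DESeq2 called it, as did edgeR without both AS replicate 1 and SS replicate 3. Fabp4, a fatty acid carrier of fat cells and macrophages, had 43.3 ± 12.6 CPM in SS and 28.2 ± 1.13 CPM in AS (log2 change 0.62, edgeR adjusted p = 0.384).

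None of 15 PPAR alpha targets was called by edgeR, DESeq2 or limma-voom, with 1 lower at an unadjusted edgeR p under 0.05, and the median was -0.35. Ehhadh, a peroxisomal oxidation enzyme, had 332 ± 76.7 CPM in SS and 575 ± 107 CPM in AS, without overlap (log2 change -0.79, SE 0.279, edgeR adjusted p = 0.276). Over the 5 lists together, 80 of 84 genes were tested, 1 was called higher and none lower, and the median was -0.14.

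**Figure D4:**
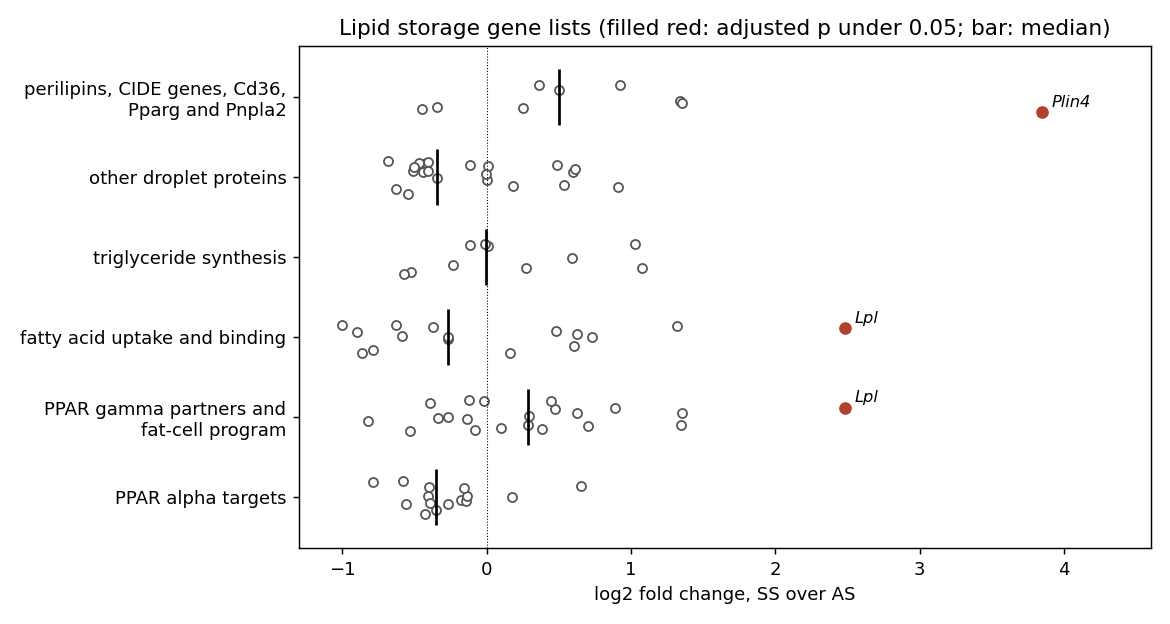
Log2 fold change of SS over AS (horizontal axis) for each tested gene of the droplet set and of the 5 other fat storage lists. Vertical bars are list medians (0.50 for the top list, 0.28 to -0.35 for the others) and red points are the called genes, Plin4 and, in both of its lists, Lpl.

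Several of these genes are also made by cells other than hepatocytes, so marker lists were set beside them. Macrophages use Cd36, Pparg, Plin2 and Lpl. The 16 macrophage markers summed to 1232 to 2678 CPM in SS and 867 to 1099 CPM in AS. Of them 5 were called higher by edgeR, against 0.911% of all tested genes, 5 by DESeq2 (1.87%) and none by limma-voom (0.238%). Without both AS replicate 1 and SS replicate 3, edgeR called 6 higher, against 2.72%. All 16 had log2 changes above 0. At an unadjusted edgeR p under 0.05 there were 13, against 12.7% of all tested genes in either direction. The 4 with the lowest p were Gpnmb, Mmp12, Trem2 and Lgals3, with log2 changes of 5.97, 3.50, 2.92 and 1.97. Gpnmb stood at 5.27 without SS replicate 3, Mmp12 at 2.87 without both AS replicate 1 and SS replicate 3, and the calls of Mmp12, Trem2 and Lgals3 ended without AS replicate 1. Their sum was highest in SS replicate 2, as for Lpl, whereas Cd36 and Plin4 were highest in SS replicate 3. Of the 16 markers, 10 were highest in SS replicate 2, 4 in SS replicate 3 (Adgre1, Csf1r, Gpnmb and Mmp12) and 2 in SS replicate 1. The part of macrophages in these results was not tested.

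Fat cells use Plin1, Plin4 and Cidec. Adipocyte markers were near their floor: Plin1 and Lep had 0 reads in all libraries, Adipoq had at most 0.218 CPM in any SS library and 0.161 CPM in any AS library, and 6 of the 8 markers were too low to test. The 8 together summed to 22.2 to 23.6 CPM in SS and 11.5 to 40.6 CPM in AS, nearly all from Adrb3 and Lipe, whose log2 changes were -0.30 and -0.47 and which were not called. The sign for Adrb3 turned in limma-voom and in the fits without AS replicate 2 or 3.

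Erythroid markers, the other list with calls, summed to 248 to 494 CPM in SS and 45.7 to 63.0 CPM in AS. Alas2 alone had 179, 314 and 267 CPM in SS replicates 1, 2 and 3. Of 8 tested, 4 were called higher by edgeR, against 0.911% of all tested genes. Among them were Alas2 and Slc4a1 with log2 changes of 3.14 and 4.62. DESeq2 called 6 of 9 higher (1.87% of all tested genes) and limma-voom 2 of 8 (0.238%). Klf1 was the 1 of the 8 with a log2 change below 0 (-0.86, edgeR adjusted p = 0.491). Slc4a1 stood at 3.97 without SS replicate 3 and at 3.83 without both AS replicate 1 and SS replicate 3. Leaving out AS replicate 1 alone ended its call (edgeR adjusted p = 0.0549). The highest sum was in SS replicate 3. The stellate cell sum was also highest there. Stellate cell markers summed to 413 to 582 CPM in SS and 325 to 406 CPM in AS. None of 8 was called by edgeR, 3 had an unadjusted p under 0.05, and Col1a1 (log2 change 1.82) and Rgs5 (1.97) had the lowest p. Both rested in part on SS replicate 3, without which Col1a1 stood at 1.16 and Rgs5 at 0.73. DESeq2 called Col1a1. Endothelial sums, highest in SS replicate 3 again, were 209 to 371 CPM in SS and 226 to 308 CPM in AS, with none of 7 called by edgeR, 2 at an unadjusted p under 0.05, and Lyve1 (log2 change 2.48, called by DESeq2) and Gpihbp1 (-0.65) at the lowest p. Lyve1 had 6.47, 6.74 and 40.5 CPM in SS and 2.42, 4.67 and 2.70 CPM in AS. Its log2 change was 1.03 without SS replicate 3 and 0.87 without both AS replicate 1 and SS replicate 3. Hepatocyte sums overlapped as well, at 78062 to 105120 CPM in SS and 93766 to 137634 CPM in AS. None of the 9 hepatocyte markers was called by edgeR. Cyp2e1 (log2 change -0.82) was the 1 with an unadjusted p under 0.05 and was called by DESeq2. Serpina1c (log2 change -1.03) came next. It stood at -0.39 without AS replicate 1 and at -0.13 without both AS replicate 1 and SS replicate 3. Without both AS replicate 1 and SS replicate 3, edgeR called 1 of the 9 higher and 3 lower, against 2.72% and 2.49% of all tested genes. These were Apoa1, Cps1, Tat and Cyp2e1, of which Cyp2e1 was lower (log2 change -0.83, edgeR adjusted p = 0.0297). Whether erythroid, stellate or endothelial cells had a part in the droplet genes was not tested.

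The plot of Plin4 and Cd36 under each setting shows the size of both differences against the choices made.

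**Figure D5:**
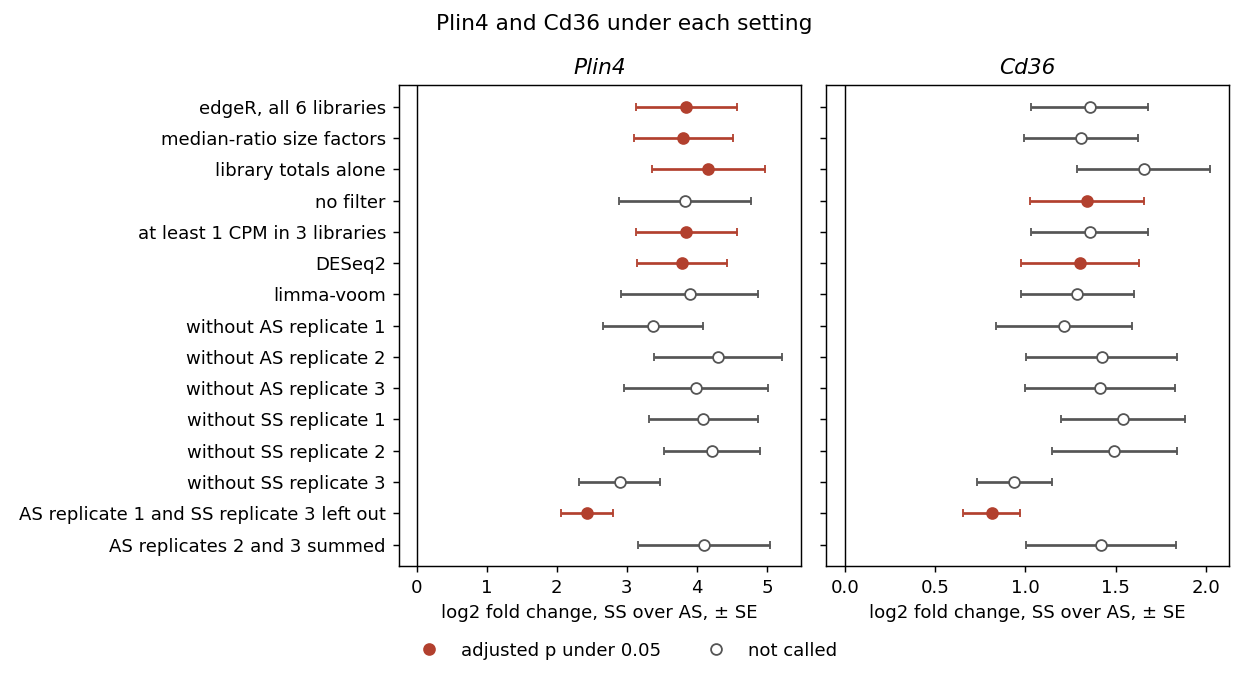
Log2 fold change of SS over AS ± SE (horizontal axes) for Plin4 and Cd36 under each scaling, filter, test and choice of libraries. Every point lies above 0, from 2.43 to 4.30 for Plin4 and from 0.81 to 1.65 for Cd36, and filled red points are the settings in which the gene was called.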

How the data were processed

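Each library has 1 file of whole-number read counts per gene, as deposited by the authors. Reads were aligned with HISAT2 and counted with HTSeq on mm10, per the submitters' processing notes. The sources used here give no tool versions, annotation, strand setting or read filters. The 5 counter lines that name no gene held 66.6% to 78.5% of alignment records per library and were left out.

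The test of SS against AS used edgeR 4.0.16 (R 4.3.3) with filterByExpr (minimum count 10, minimum total 15), TMM scaling and the robust form of its quasi-likelihood F-test, two-sided, with Benjamini-Hochberg adjustment over all 12622 genes tested. Standard errors came from the F statistic. CPM was computed from the deposited counts with the same factors, and CPM per kilobase with GENCODE exon lengths on the same build. Limits from 0 reads cover counting error only, as reads are not unique molecules. The script was tested on simulated counts.

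The members and lists were chosen with earlier results of these data known. Named were all members and, per list, up to 4 called genes or otherwise the 2 with the lowest p; a few of these are not reported here. Of 150 list symbols, 146 matched directly, 3 by a RefSeq synonym and 1 by hand. Alternatives were median-ratio or no scaling factors, other filters, DESeq2 1.42.0, limma-voom (limma 3.58.1), a replicate block and left-out or summed libraries.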

Additional observations from a re-analysis of the deposited data

How the results depend on the processing

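With all 6 libraries, SS had 115 genes called higher, 7 lower and 1 droplet gene called higher. Leaving out 1 library at a time gave 22 to 85 genes higher, 0 to 15 lower and 0 droplet genes. Without a low-count filter the counts over all genes were 188 and 29, and the 1 droplet gene called was Cd36. DESeq2 gave 275 and 93 with 2 droplet genes (Plin4 and Cd36), limma-voom 30 and 1 with 0, and library totals alone 167 and 1, with a median log2 change of 0.36 over all genes instead of 0.08. Without both AS replicate 1 and SS replicate 3 they were 346 and 316 with 2 droplet genes, or 2.72% of tested genes called higher, and with AS replicates 2 and 3 summed 31 and 0 with 0. The cause of these shifts was not tested. The sign turned for Plin2, whose fits without 1 library ran from -0.59 to 0.19 (without AS replicate 1), and which stood at 0.47 without that library and SS replicate 3, and for Adrb3, the 1 gene among the 23 list genes run under the alternatives to do so, to 0.30 by limma-voom, 0.086 and 0.011 without AS replicate 2 or 3 (-0.83 without AS replicate 1), and 0.039 with AS replicates 2 and 3 summed. The other 8 tested droplet genes kept their sign in all 15 alternatives.

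Replicate numbers were not shown to pair the libraries: deviations from the group means of same-numbered libraries correlated at 0.050, -0.12 and 0.19 over genes, and AS replicate 1 correlated best with SS replicate 2. With the number as a replicate block, 367 genes (2.91% of those tested) came out higher and 93 lower, 2 droplet genes among the higher (Plin4 and Cd36), and Adrb3 stood at 0.077. With 3 libraries a group, the intervals of Plin3 and Pnpla2 still reach log2 changes of 0.90 and 0.73.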
